A study of Mus musculus with 6 samples.

Results

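Histone genes were described here in cultured BFU-E (burst-forming units, erythroid), early progenitors of red blood cells taken from mouse fetal liver. The genes were those whose symbol opens with Hist1h to Hist4h, H2af, H3f3 or H1f, without symbols that hold -ps (annotated pseudogenes) and without genes under 30 counts summed over the 6 libraries. Of 76 matching symbols, 4 held -ps and 21 fell under the minimum, 12 of them with no count. This left 51 genes of 37620 in the count tables, 40 clustered and 11 replication-independent. The 11 include H3f3c, annotated as a processed pseudogene though its symbol lacks -ps, and the antisense gene H3f3aos. The lowest genes kept were Hist1h3b with 33 counts and Hist1h4n with 34, and the highest left out were Hist1h4m with 26 and Hist1h2ad with 25.

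The study sequenced polyadenylated RNA from 3 groups with 2 libraries each. One group received dexamethasone (Dex, a synthetic glucocorticoid) at 100 nM plus GW7647 (an agonist of the nuclear receptor PPARα) at 10 µM, one received Dex at 100 nM alone, and one was untreated. All cells came from strain 129/SvImJ at E14.5 (embryonic days). They were depleted of lineage-positive, Sca-1, CD16/32, CD41 and CD34 cells, and then sorted for c-kit and the lowest 10% of CD71. Per the labels, the culture medium (SFELE) held stem cell factor, IGF-1 and erythropoietin and treatment lasted 12 h, but column names of 1 table carry 36 h, so the exposure is not settled. The labels do not describe separate embryo pools or cultures for the replicates, so the p-values measure the spread between these libraries, which may be technical.

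Histones are the proteins around which DNA is wound; H2A, H2B, H3 and H4 form the core of the nucleosome and H1 binds the linker DNA. Clustered histone genes lie in gene clusters, lack introns in most cases, and are transcribed mainly in S phase. Their mRNAs usually end shortly after a conserved stem-loop, which is bound by the protein Slbp and takes the place of a poly(A) tail. Replication-independent histone genes give ordinary polyadenylated mRNAs and are expressed through the cell cycle and after it. Some clustered genes also give longer, polyadenylated transcripts, known above all from differentiating cells. Selection for poly(A) therefore is known to take both classes unequally, and the counts of the clustered genes do not measure their mRNA without a poly(A) tail.

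The stem-loop was searched in the GENCODE M21 transcripts (GRCm38) as GG, any 2 bases, CTTTT, any base, AG, any 2 bases and CC, on the sense strand. It stood in 72 of 21901 protein-coding genes (0.329%), and 44 of those have a Hist symbol. Among the genes described here it stood in 30 of 40 clustered genes and in H2afx, and the exact 16 bases took 7 forms, of which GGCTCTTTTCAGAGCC was in 16 genes. The annotated transcript ended within 100 bases of the stem-loop in 15 clustered genes and ran over 100 bases past it in the other 15. Of the 10 clustered genes with no match, 3 have no UTR in the model, so the search could not reach the place. Hist1h2af and Hist1h2ah, at 399 and 405 bases, are little longer than the H2A models without a UTR, at 393, and may not reach it. The windows below are shown because they carry this difference: the stem-loop is in capitals, and all are read 5′ to 3′.
Hist1h1c: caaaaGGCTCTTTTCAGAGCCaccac
Hist1h4i: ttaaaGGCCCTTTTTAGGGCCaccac
Hist3h2a: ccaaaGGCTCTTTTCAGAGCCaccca
Hist1h2ac: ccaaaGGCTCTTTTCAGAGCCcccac
Hist1h3e: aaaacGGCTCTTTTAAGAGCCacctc
Hist1h3c: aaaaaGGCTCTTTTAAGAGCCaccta
Hist1h2ag: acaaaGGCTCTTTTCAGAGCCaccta
Hist1h2bj: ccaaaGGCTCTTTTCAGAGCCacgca
H2afx: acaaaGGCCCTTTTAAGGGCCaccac
The annotated transcript runs on for 840 bases after the stem-loop in Hist1h1c, 330 in Hist1h4i, 1643 in Hist3h2a, 2010 in Hist1h2ac, 369 in Hist1h3e and 822 in H2afx. It runs on for only 74 bases in Hist1h3c, 23 in Hist1h2ag and 23 in Hist1h2bj. Hist2h2be, with a transcript of 2620 bases, and Hist1h2bc held no match to this pattern. A stem-loop with other bases at the fixed places would be missed, so no match does not show that it is absent. A match describes the annotated sequence; which transcript ends were present in the libraries cannot be read from counts per gene.

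Hist1h2ag and Hist1h2bj are transcribed away from each other with 270 bases between their annotated starts, and their counts went the same way against untreated cells, as described further on. The 250 bases before the start of Hist1h2bj (H2bc11 in RefSeq, GRCm38.p6, chr13:22042948-22043197, plus strand) are shown because they make up most of the stretch between both genes. CCAAT boxes, searched as CCAAT on both strands, are in capitals.
Hist1h2bj promoter: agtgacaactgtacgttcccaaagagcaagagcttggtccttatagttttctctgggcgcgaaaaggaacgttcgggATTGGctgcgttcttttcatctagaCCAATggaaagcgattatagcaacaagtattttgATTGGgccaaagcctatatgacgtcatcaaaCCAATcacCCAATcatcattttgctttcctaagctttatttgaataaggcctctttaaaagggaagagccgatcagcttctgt
It holds 5 CCAAT boxes, none overlapping another. In RefSeq promoters of this length, CCAAT stood in 29 of 36 matched clustered genes and in 5 of 9 replication-independent genes, against 34.5% of 27025 promoters. The octamer ATTTGCAT, known from H2B promoters, stood in 9 of 36 clustered genes (6 of 10 H2A and 3 of 8 H2B genes) and 1 of 9 replication-independent genes, against 1.61% of all promoters. TATAAA stood in 20 of 36 clustered genes and 1 of 9 replication-independent genes, against 13.0%. Both strands were searched for each motif.

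Libraries held 46716806 and 35970286 counts in Dex plus GW7647, 54174801 and 45058773 in Dex, and 37577414 and 39791302 in untreated cells. Replicates correlated at 0.996 on a log scale, but the spread between the Dex libraries was the widest (chi-square per degree of freedom 20.5, against 3.75 in Dex plus GW7647 and 8.25 in untreated cells). Dex replicate 1 also held 1.73% mitochondrial counts, where the other 5 libraries held 2.46% to 2.88%. Gata1, a master regulator of erythroid genes, had 10370 and 10350 normalized counts in Dex plus GW7647, 10660 and 10230 in Dex, and 11480 and 12380 in untreated cells. Of 9 erythroid markers, 2 were called higher (Kit and Gfi1b) and 5 lower (Gata1, Tfrc, Tal1, Hba-a1 and Hbb-bs) with Dex against untreated cells. With Dex plus GW7647 against untreated cells, 2 were called higher and 6 lower. Over all tested genes, 25.5% were called higher and 26.0% lower with Dex, and 24.7% and 25.1% with Dex plus GW7647. Kit, the receptor of stem cell factor and a marker of the sort, had 12800 and 12890 in Dex plus GW7647, 12680 and 12630 in Dex, and 4270 and 4311 in untreated cells. Globin genes took 2.82% and 2.76% of counts in Dex plus GW7647, 3.12% and 2.96% in Dex, and 6.48% and 7.15% in untreated cells. Normalized counts are counts divided by the library's effective size (the total over tested genes times a TMM factor from edgeR) and multiplied by the mean effective size of the 6 libraries.

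Histone genes took a small and steady share of these libraries. Clustered genes made up 0.0199% ± 0.00062 of counts in Dex plus GW7647, 0.0222% ± 0.00055 in Dex and 0.0212% ± 0.00095 in untreated cells (SD, n = 2 each). Replication-independent genes made up 0.163% ± 0.0024 in Dex plus GW7647, 0.160% ± 0.00091 in Dex and 0.154% ± 0.00052 in untreated cells (SD, n = 2 each). Outside globin and mitochondrial genes the replication-independent share was 0.173% in Dex plus GW7647, 0.169% in Dex and 0.170% in untreated cells. In the whole data the clustered genes had 54900 counts and the replication-independent genes 412036. In bulk samples, fewer cells that express a gene and less RNA per cell cannot be told apart.

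Of the clustered counts, 91.2% came from 5 genes with at least 1000 counts: Hist1h1c (35856), Hist1h4i (5501), Hist1h2bc (3969), Hist2h2be (3622) and Hist3h2a (1140). The other 35 genes had under 1000 counts each, and 9 of them were under 50. By protein, the 40 genes encode 5 H1, 10 H2A, 10 H2B, 4 H3 and 11 H4 histones. Per length, as CPM (counts in each 1000000) per kilobase of annotated exon, Hist1h1c averaged 85.1 in Dex plus GW7647, 95.1 in Dex and 83.9 in untreated cells. Hist1h4i followed with 25.9, 29.0 and 33.1 in the same order of groups, and Hist1h2bc with 9.75, 10.98 and 19.9. On the same scale Hist2h2be stood at 5.53 in Dex plus GW7647, 6.21 in Dex and 4.04 in untreated cells. Hist1h3c, which has a short annotated transcript, stood at 3.16, 3.38 and 1.61.

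Many clustered genes are near copies of each other, and reads that fit several of them cannot be assigned with certainty. Of all 50-base stretches of the transcript, those also found in another annotated gene made up 78.9% in Hist1h2ag, 79.7% in Hist1h2af, 73.4% in Hist1h3e, 59.4% in Hist1h2bj and 47.0% in Hist1h3c. In Hist1h1c they were 8.5%, in Hist1h2ac 14.1%, in Hist1h4i 28.9%, in Hist1h2bc 30.1% and in Hist2h2be 0.0%. In Hist3h2a they were 31.5%, shared mainly with Trim17, which overlaps it on the same strand. The values of the genes with high shares are uncertain for that reason.

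**Figure D1:**
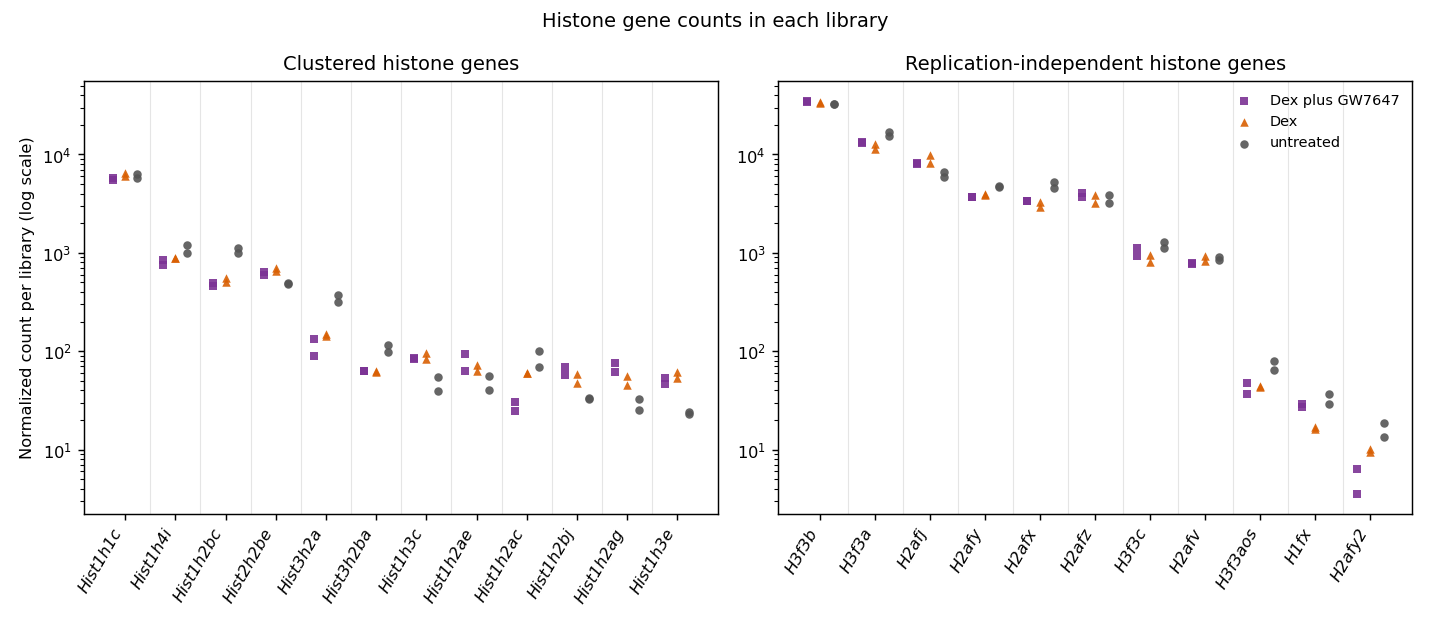
Normalized counts on a log axis, with 1 symbol per library and 2 libraries per group, for 12 clustered genes (left) and the 11 replication-independent genes (right); within each gene the groups run from Dex plus GW7647 over Dex to untreated. Hist1h2bc and Hist3h2a sit lower in both treated groups than in untreated cells, Hist1h3e sits higher, and Hist1h1c and H3f3b lie level across the groups on this scale.

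With Dex alone the clustered genes split into both directions. Against untreated cells, 5 of the 31 tested clustered genes rose (Hist1h3e, Hist1h3c, Hist1h2ag, Hist1h2bj and Hist2h2be) and 5 fell (Hist1h2af, Hist3h2a, Hist1h2bc, Hist3h2ba and Hist1h4i). A gene was called at an adjusted p under 0.05 in the quasi-likelihood test of edgeR, where p-values of 14125 genes were adjusted by the Benjamini-Hochberg method. The share called, 32.3%, lies below the 51.6% called over all genes (25.5% higher and 26.0% lower), and many clustered genes have few counts. The median log2 difference of the tested clustered genes was 0.46, against 0.01 over all genes tested. The 2 Dex libraries did not overlap the 2 untreated ones in 23 of the 31, beside 73.0% of all genes. The other 9 clustered genes (Hist1h2ah, Hist1h2bf, Hist1h2bp, Hist1h3b, Hist1h4a, Hist1h4f, Hist1h4k, Hist1h4n and Hist2h2ac) did not pass the filter on low counts; 5 of the 9 had a higher mean in Dex than in untreated cells. With genes of any count tested, 10 clustered genes were called higher and 6 lower, beside 19% and 17% of all 21735 genes. With DESeq2, 3 were higher and 5 lower, beside 20.9% and 22.6% of all genes. Scaling libraries by total counts put the median difference of all tested genes at 0.14, against 0.01 with TMM. The higher ones among all calls were then 67.8%, against 49.5% with TMM. With that scaling 7 clustered genes were called higher and 4 lower, beside 38.6% and 18.3% of all genes.

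Hist1h1c encodes the linker histone H1.2. It had 5489 and 5745 normalized counts in Dex plus GW7647, 6413 and 6053 in Dex, and 5731 and 6309 in untreated cells. The libraries of the Dex and untreated groups overlapped, and the difference was not called (log2 0.05 ± 0.059 SE; edgeR adjusted p = 0.506; called higher with scaling by total counts, adjusted p = 0.0252). Of the remaining linker histone genes, Hist1h1a, Hist1h1b, Hist1h1d and Hist1h1e, none was called in this comparison.

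Hist1h2bc encodes an H2B histone. It had 490.1 and 464.1 normalized counts in Dex plus GW7647, 510.8 and 556.0 in Dex, and 1130 and 987.5 in untreated cells. Both treated groups lay well under the untreated libraries, with no overlap. The fall with Dex was 1.99-fold (log2 -0.99 ± 0.085 SE; edgeR adjusted p = 6.49e-06). Hist3h2a, an H2A gene, had 133.6 and 89.76 normalized counts in Dex plus GW7647, 142.7 and 148.1 in Dex, and 369.2 and 313.4 in untreated cells. Its fall with Dex was 2.35-fold (log2 -1.23 ± 0.164 SE; edgeR adjusted p = 0.000151). Its neighbour in the same small cluster, Hist3h2ba, an H2B gene, had 63.18 and 62.59 in Dex plus GW7647, 62.5 and 60.94 in Dex, and 99.03 and 116.8 in untreated cells. It fell 1.75-fold with Dex (edgeR adjusted p = 0.00227).

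Hist2h2be, also an H2B gene, went the other way from Hist1h2bc. It had 592.1 and 635.4 normalized counts in Dex plus GW7647, 661.2 and 706.0 in Dex, and 490.2 and 482.2 in untreated cells. It rose 1.4-fold with Dex (log2 0.49 ± 0.076 SE; edgeR adjusted p = 0.000423), with no overlap between the groups. Thus the H2B genes with the highest counts in these libraries moved in opposite directions.

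Hist1h2ac is an H2A gene whose start lies 251 bases from that of Hist1h2bc, in the opposite orientation. It had 30.69 and 24.8 normalized counts in Dex plus GW7647, 59.41 and 60.01 in Dex, and 68.46 and 100.6 in untreated cells. The difference between Dex and untreated cells was not called (log2 -0.51 ± 0.212 SE; edgeR adjusted p = 0.0716). Hist1h2af, an H2A gene with too few counts to be named under the rule for named genes and chosen after its values were seen, had 18.95 and 12.99 in Dex plus GW7647, 7.716 and 16.88 in Dex, and 42.79 and 42.78 in untreated cells. It fell 3.56-fold with Dex (edgeR adjusted p = 0.00159), the largest called fall among the clustered genes in this comparison.

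Hist1h4i, an H4 gene, had 752.8 and 838.5 normalized counts in Dex plus GW7647, 879.6 and 891.7 in Dex, and 998.8 and 1213 in untreated cells. It fell 1.25-fold with Dex (log2 -0.32 ± 0.092 SE; edgeR adjusted p = 0.0149). The call was lost without untreated replicate 2 and with scaling by total counts (edgeR adjusted p 0.0979 to 0.143).

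Of the 3 tested H3 genes, 2 rose with Dex. Hist1h3c had 84.84 and 83.85 normalized counts in Dex plus GW7647, 83.33 and 95.64 in Dex, and 39.12 and 54.35 in untreated cells. It rose 1.90-fold with Dex (log2 0.93 ± 0.198 SE; edgeR adjusted p = 0.00313). Hist1h3e, which was also chosen after its values were seen, had 46.03 and 53.15 in Dex plus GW7647, 61.73 and 53.44 in Dex, and 23.23 and 24.28 in untreated cells. It rose 2.43-fold with Dex (log2 1.28 ± 0.225 SE; edgeR adjusted p = 0.000964). The third tested H3 gene, Hist1h3a, had 16.97 and 23.44 in Dex and 9.78 and 10.41 in untreated cells, a difference that was not called (edgeR adjusted p = 0.0748).

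The divergent pair Hist1h2ag (H2A) and Hist1h2bj (H2B) was higher in treated cells. Hist1h2ag, chosen after its values were seen, had 61.38 and 75.59 normalized counts in Dex plus GW7647, 45.52 and 56.26 in Dex, and 33.01 and 25.44 in untreated cells. Hist1h2bj had 57.77 and 69.68 in Dex plus GW7647, 47.84 and 59.07 in Dex, and 33.01 and 33.53 in untreated cells. For both genes, all treated libraries lay above all untreated ones. With Dex, Hist1h2ag rose 1.73-fold (edgeR adjusted p = 0.0218) and Hist1h2bj 1.59-fold (edgeR adjusted p = 0.0298). Both calls were lost in DESeq2, without untreated replicate 2 and without Dex replicate 2, and that of Hist1h2bj also without untreated replicate 1; the adjusted p was then 0.097 to 0.14 for Hist1h2ag and 0.0988 to 0.165 for Hist1h2bj. Without Dex replicate 2, fewer clustered genes were called higher, and so were fewer of all genes.

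Read by transcript model, the clustered genes differed. The 15 genes whose annotated transcript ends within 100 bases of the stem-loop, summed without a filter, had 353.8 and 405.1 normalized counts in Dex plus GW7647, 324.1 and 342.2 in Dex, and 229.8 and 215.1 in untreated cells. Every treated library lay above both untreated ones, and the summed ratio to untreated cells was 1.71 in Dex plus GW7647 and 1.5 in Dex. The mean was higher in Dex than in untreated cells in 11 of the 15 genes, and higher in Dex plus GW7647 than in untreated cells in 12 of the 15. Without Hist1h3c, Hist1h2ag and Hist1h2bj, the other 12 summed to 149.8 and 176.0 in Dex plus GW7647, 147.4 and 131.3 in Dex, and 124.7 and 101.8 in untreated cells, so the ratio of Dex to untreated cells was 1.23. The 12 genes with under 1000 counts whose transcript runs over 100 bases past the stem-loop summed to 319.5 and 372.0 in Dex plus GW7647, 393.5 and 405.0 in Dex, and 388.8 and 456.7 in untreated cells. In that set the untreated libraries spanned the Dex libraries, and the ratio of Dex to untreated cells was 0.944. These sums are a description with no test, and the boundary of 100 bases was set with the data known.

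By protein, counts were summed over all clustered genes without a filter. The 5 H1 genes summed to 5541 and 5826 normalized counts in Dex plus GW7647, 6501 and 6147 in Dex, and 5835 and 6401 in untreated cells. The 10 H2A genes summed to 371.0 and 369.7 in Dex plus GW7647, 408.2 and 417.2 in Dex, and 618.6 and 585.1 in untreated cells. The 10 H2B genes summed to 1289 and 1338 in Dex plus GW7647, 1356 and 1475 in Dex, and 1845 and 1714 in untreated cells. The H2A and H2B sums were thus lower in every treated library than in both untreated ones, while the H1 sums of Dex and untreated cells overlapped. The 11 H4 genes summed to 857.5 and 942.5 in Dex plus GW7647, 1000 and 985.4 in Dex, and 1064 and 1282 in untreated cells, a ratio of Dex to untreated cells of 0.846. The 4 clustered H3 genes summed to 155.2 and 171.3 normalized counts in Dex plus GW7647, 165.9 and 179.1 in Dex, and 81.91 and 92.51 in untreated cells. The H3 sum was the 1 sum by protein that was higher in every treated library.

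Without the 5 genes of at least 1000 counts, some of these sums turned. The 10 H4 genes under 1000 counts, all but Hist1h4i, summed to 104.7 and 103.9 in Dex plus GW7647, 120.4 and 93.76 in Dex, and 64.79 and 69.38 in untreated cells, a ratio of Dex to untreated cells of 1.6. The 9 H2A genes under 1000 counts, all but Hist3h2a, summed to 237.4 and 279.9 in Dex plus GW7647, 265.4 and 269.1 in Dex, and 249.4 and 271.7 in untreated cells. The 8 H2B genes under 1000 counts summed to 206.7 and 238.6 in Dex plus GW7647, 184.4 and 212.8 in Dex, and 224.9 and 244.0 in untreated cells, and the 4 H1 genes to 52.35 and 81.49, 88.73 and 93.76, and 103.9 and 92.51 in the same order of groups. Of these smaller sets, the H4 sum was higher in every treated library than in both untreated ones, and the H2A libraries overlapped.

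**Figure D2:**
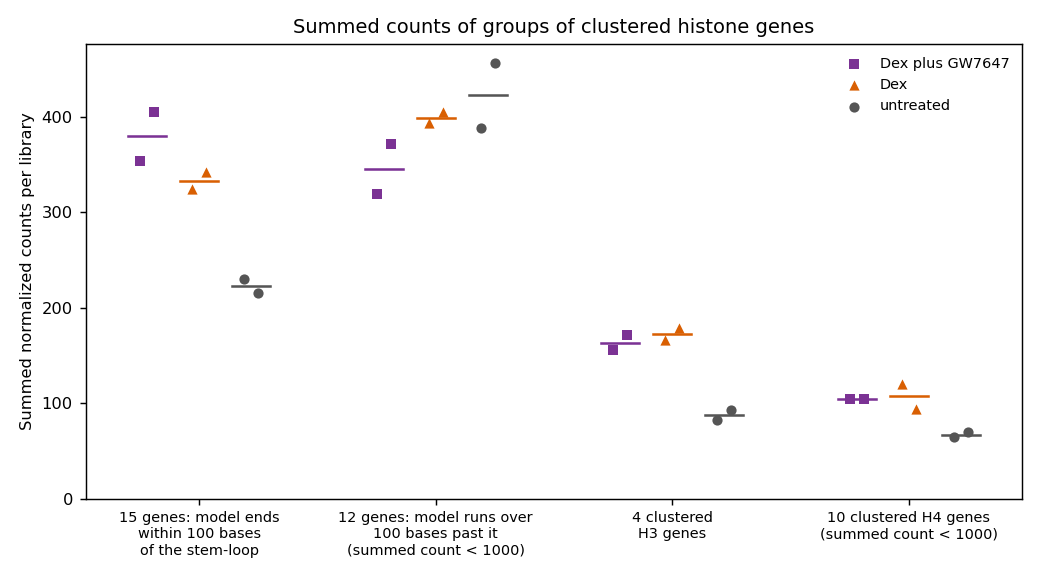
Summed normalized counts per library (points; 2 per group) with the group mean (line) for groups of clustered histone genes defined by transcript model or by protein; in each set the groups run from Dex plus GW7647 over Dex to untreated. The sums of the 15 genes with short models, of the 4 H3 genes and of the 10 H4 genes under 1000 counts are higher in all treated libraries than in untreated ones, and that of the 12 genes with longer models is not; with Hist1h4i, left out here, the H4 sum is lower in treated cells.

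Among the replication-independent genes, more fell than rose with Dex. Of the 11 genes, all tested, 1 rose (H2afj) and 6 fell (H2afx, H3f3a, H2afy, H3f3c, H1fx and H3f3aos) with Dex against untreated cells, which is 63.6% called (54.5% lower), beside the same 51.6% over all genes (26.0% lower). Their median log2 difference was -0.41, against 0.01 over all genes tested, and the libraries of the groups did not overlap in 9 of the 11, beside 73.0% of all genes. The direction held with scaling by total counts, with 2 higher and 6 lower, and in DESeq2, with 1 higher and 4 lower. Over all genes, 38.6% were higher and 18.3% lower with total counts, and 20.9% and 22.6% in DESeq2. Of the 6 that fell, H3f3c is a processed pseudogene and H3f3aos an antisense gene. Both share sequence or place with H3f3a, so their falls cannot be counted apart from that of H3f3a.

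H3f3a and H3f3b encode the same protein, H3.3, the H3 variant placed on chromatin outside replication. H3f3b, which supplied 49.2% of all replication-independent counts, had 34420 and 35230 normalized counts in Dex plus GW7647, 33030 and 34180 in Dex, and 32820 and 32980 in untreated cells. The Dex libraries lay just above the untreated ones, and the difference was not called (log2 0.03 ± 0.044 SE; edgeR adjusted p = 0.588); with scaling by total counts H3f3b was called higher (edgeR adjusted p = 0.00898). H3f3a had 13070 and 13430 in Dex plus GW7647, 11320 and 12930 in Dex, and 16900 and 15330 in untreated cells. It fell 1.33-fold with Dex (log2 -0.41 ± 0.069 SE; edgeR adjusted p = 0.00072). Per kilobase of annotated exon, H3f3b averaged 276.5 CPM in Dex plus GW7647, 268.7 in Dex and 240.5 in untreated cells, and H3f3a 89.4 in Dex plus GW7647, 82.3 in Dex and 100.0 in untreated cells.

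Another pair of genes in this family shares sequence or place with H3f3a. H3f3c is annotated as a processed pseudogene, and 73.8% of its 50-base stretches occur in other genes, mainly H3f3a. It had 935.1 and 1116 normalized counts in Dex plus GW7647, 810.2 and 941.4 in Dex, and 1110 and 1297 in untreated cells, and fell 1.38-fold with Dex (edgeR adjusted p = 0.00502). H3f3aos lies antisense to H3f3a and fell 1.63-fold to 44.75 and 43.13 in Dex, against 79.46 and 64.75 in untreated cells (edgeR adjusted p = 0.0158; 0.103 to 0.115 in DESeq2 and without untreated replicate 1). The library kit named in the labels does not mark the strand, so reads of H3f3a and H3f3aos cannot be told apart where they overlap.

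H2afx encodes H2AX, the H2A variant that is phosphorylated at DNA breaks. It is the one gene of this class described here whose transcript matched the stem-loop pattern. It had 3390 and 3360 normalized counts in Dex plus GW7647, 3309 and 2925 in Dex, and 4539 and 5260 in untreated cells. It fell 1.57-fold with Dex (log2 -0.65 ± 0.077 SE; edgeR adjusted p = 6.7e-05), with no overlap. H2afj, which encodes the variant H2A.J, had 7947 and 8203 in Dex plus GW7647, 9881 and 8223 in Dex, and 5909 and 6665 in untreated cells. It rose 1.44-fold with Dex (log2 0.53 ± 0.085 SE; edgeR adjusted p = 0.000545). All treated libraries were above the untreated ones.

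H2afz and H2afv encode the H2A.Z variants, which mark promoters and other regulatory sites. H2afz had 3665 and 4082 normalized counts in Dex plus GW7647, 3182 and 3840 in Dex, and 3908 and 3230 in untreated cells, and the groups overlapped. H2afv had 787.1 and 774.8 in Dex plus GW7647, 922.8 and 828.8 in Dex, and 850.9 and 907.7 in untreated cells. Neither was called with Dex (edgeR adjusted p = 0.861 for H2afz and 0.967 for H2afv). H2afy, which encodes macroH2A1, a large variant associated with repressed chromatin, had 3713 and 3725 in Dex plus GW7647, 3988 and 3835 in Dex, and 4637 and 4771 in untreated cells. It fell 1.2-fold with Dex (log2 -0.27 ± 0.047 SE; edgeR adjusted p = 0.000926). H2afy2, which encodes macroH2A2, was near the floor of the data, with 6.318 and 3.543 in Dex plus GW7647, 10.03 and 9.376 in Dex, and 13.45 and 18.5 in untreated cells, and was not called with Dex (edgeR adjusted p = 0.156).

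H1fx encodes the linker histone H1.10. It had 28.88 and 27.16 normalized counts in Dex plus GW7647, 16.2 and 16.88 in Dex, and 29.34 and 37.0 in untreated cells. It fell 2.01-fold with Dex (log2 -1.004 ± 0.27 SE; edgeR adjusted p = 0.0108), a call lost in DESeq2 and without untreated replicate 2 (adjusted p 0.0902 to 0.111). With GW7647 added its level stood between those of Dex and untreated cells and neither difference was called.

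**Figure D3:**
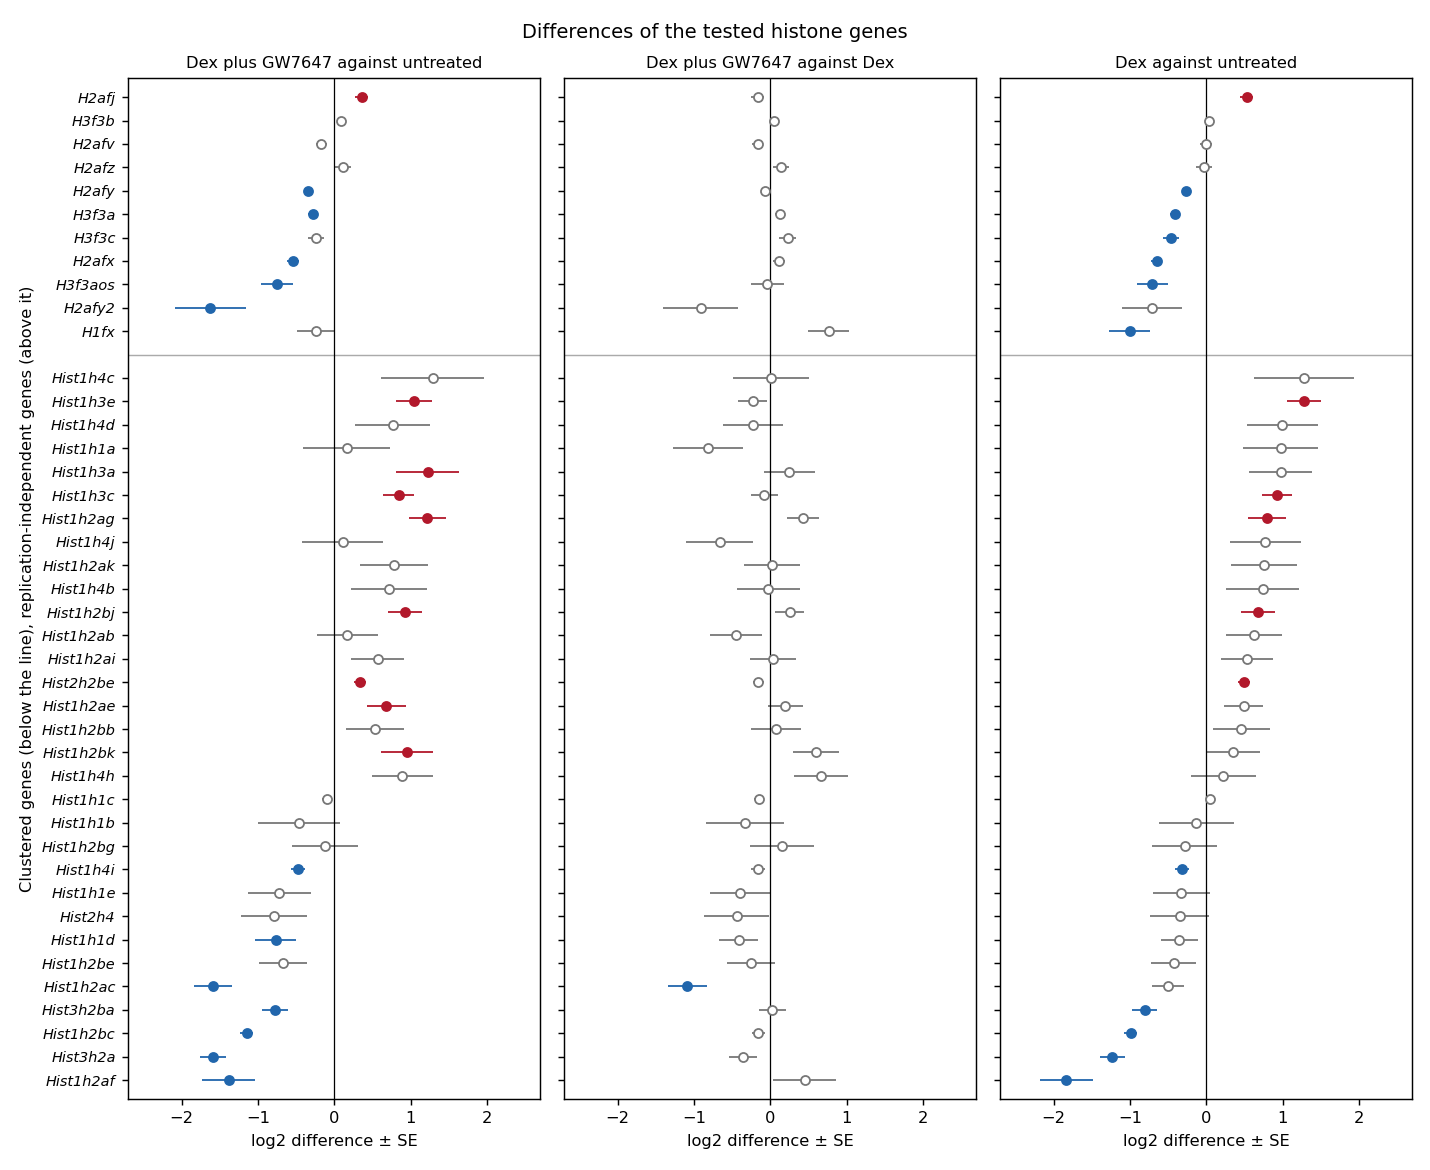
log2 difference ± SE from edgeR for the 31 tested clustered genes (below the grey line) and the 11 replication-independent genes (above it) in 3 comparisons; filled red symbols are called higher, filled blue symbols called lower, and open symbols not called. The panel of Dex plus GW7647 against Dex has 1 filled symbol, Hist1h2ac, and the other panels have filled symbols on both sides of 0.

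Adding GW7647 to Dex moved few of these genes. Against Dex, 1 of 31 tested clustered genes was called, Hist1h2ac, which fell, and none of the 11 replication-independent genes. That is 3.23% and 0.0%, beside 9.73% over all 14125 genes (2.15% higher and 7.58% lower). Hist1h2ac fell 2.12-fold to 27.74 ± 4.16 normalized counts in Dex plus GW7647, against 59.71 ± 0.421 in Dex (SD, n = 2 each; log2 -1.09 ± 0.25 SE; edgeR adjusted p = 0.0227). The groups did not overlap, but the call was lost in DESeq2, without Dex replicate 1 and without either Dex plus GW7647 replicate (adjusted p 0.0525 to 0.151). At an unadjusted p under 0.05, edgeR gave 2 clustered genes lower (Hist1h2ac and Hist1h1c) and none higher. It gave 1 replication-independent gene higher (H1fx) and 1 lower (H2afv). The share of all genes at that unadjusted p is not given here. DESeq2 called none of either class at its adjusted p, beside 7.84% of all genes. Hist1h1c differed by log2 -0.15 ± 0.059 SE (edgeR adjusted p = 0.148), H1fx by 0.76 ± 0.271 (edgeR adjusted p = 0.115) and H2afv by -0.17 ± 0.073 (edgeR adjusted p = 0.195). Libraries did not overlap in 18 of the 31 tested clustered genes and 8 of the 11 replication-independent genes, beside 53.5% of all genes. Without Dex replicate 2, H2afj was called lower and H3f3a higher (edgeR adjusted p = 0.0361 for H3f3a). The median log2 difference was -0.15 for the tested clustered genes, 0.05 for the replication-independent genes and 0.00 over all genes tested.

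Against untreated cells, Dex plus GW7647 gave 8 clustered genes higher and 7 lower of 31 tested (48.4%), and 1 replication-independent gene higher and 5 lower of 11 (54.5%), beside 49.7% over all genes (24.7% higher and 25.1% lower). Libraries did not overlap in 23 of the 31 and 9 of the 11, beside 76.2% of all genes. With scaling by total counts 8 clustered genes were higher and 6 lower, and 2 replication-independent genes higher and 4 lower. Over all genes 38.8% were then higher and 19.2% lower. This comparison shares its untreated libraries with that of Dex, so its calls are no separate evidence. The higher clustered genes were Hist1h2ag, Hist1h3e, Hist1h2bj, Hist1h3c, Hist2h2be, Hist1h2ae, Hist1h3a and Hist1h2bk, of which Hist1h3a, Hist1h2bk, Hist1h2ag and Hist1h3e were named after their values were seen. The lower ones were Hist1h2bc, Hist3h2a, Hist3h2ba, Hist1h2ac, Hist1h2af, Hist1h4i and Hist1h1d, the last also named after its values were seen. Hist1h2ac fell 3.01-fold (log2 -1.59 ± 0.247 SE; edgeR adjusted p = 0.00045) and Hist3h2a 3.01-fold (edgeR adjusted p = 3.95e-05). Hist1h2ag rose 2.33-fold (log2 1.22 ± 0.242 SE; edgeR adjusted p = 0.00211). Hist1h2ae, an H2A gene, rose 1.60-fold to 62.28 and 94.48 in Dex plus GW7647, against 40.34 and 55.5 in untreated cells (edgeR adjusted p = 0.0484), and was no longer called in 4 of 12 alternatives. The calls of Hist1h2bk, Hist1h3a and Hist1h1d were lost in 6, 4 and 5 of them. Hist1h3c was not called without untreated replicate 1 (edgeR adjusted p = 0.0565), nor Hist2h2be without Dex plus GW7647 replicate 2 (edgeR adjusted p = 0.0568). Without untreated replicate 1, or without Dex plus GW7647 replicate 2, fewer clustered genes were called higher, and so were fewer of all genes.

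Among the replication-independent genes, H2afj rose 1.28-fold in Dex plus GW7647 against untreated cells (edgeR adjusted p = 0.00572). H2afx fell 1.45-fold (edgeR adjusted p = 0.000272), H2afy 1.26-fold (edgeR adjusted p = 0.000212) and H3f3a 1.22-fold (edgeR adjusted p = 0.00701). H3f3aos fell 1.68-fold (edgeR adjusted p = 0.0148) and H2afy2 3.09-fold (edgeR adjusted p = 0.0154), with wide errors on few counts. H3f3a was no longer called with scaling by total counts, without untreated replicate 1 or without Dex plus GW7647 replicate 1 (edgeR adjusted p 0.0553 to 0.0606). H2afy2 lost its call in DESeq2, without untreated replicate 2 and without Dex plus GW7647 replicate 2 (adjusted p 0.0878 to 0.114), and H3f3aos lost its in DESeq2, without untreated replicate 1 and without Dex plus GW7647 replicate 2 (adjusted p 0.084 to 0.102).

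Genes that make and process histone mRNA were called in both directions. Of 21 such genes, 5 rose (Cstf2t, Ncbp2, Cpsf1, Cpsf3 and Ncbp1) and 3 fell (Slbp, Lsm10 and Zfp473) with Dex against untreated cells, with a median log2 difference of 0.02 against 0.01 over all genes; with scaling by total counts the split was 10 higher and 1 lower. Over all genes 25.5% were called higher and 26.0% lower, and with scaling by total counts 38.6% and 18.3%. Slbp, the stem-loop binding protein, fell 1.2-fold to 8815 and 8578 normalized counts in Dex, against 10330 and 10490 in untreated cells (edgeR adjusted p = 0.000882), and had 9274 and 8949 in Dex plus GW7647. Lsm10 and Zfp473 belong to the U7 machinery that cuts histone precursor mRNA after the stem-loop. Cstf2t, a poly(A) site cleavage factor, rose to 2110 ± 13.0 in Dex, against 1745 ± 19.5 in untreated cells (SD, n = 2 each; log2 0.27 ± 0.052 SE; edgeR adjusted p = 0.00157). The cap-binding subunit Ncbp2 rose to 3770 ± 45.6 in Dex, against 3159 ± 193 in untreated cells (SD, n = 2 each; edgeR adjusted p = 0.00265). Npat, the coactivator that turns on clustered histone genes in S phase, had 2447 and 2750 in Dex and 2665 and 2634 in untreated cells, which overlapped. In Dex plus GW7647 against untreated cells 6 rose and 3 fell, beside 24.7% of all genes higher and 25.1% lower. Against Dex none of the 21 was called, beside 9.73% over all genes, and edgeR's unadjusted p was under 0.05 in 0 of them, as was DESeq2's adjusted p.

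Histone chaperones and exchange factors carry histones to chromatin and remove them. Of 26 such genes, 4 rose (Rbbp7, Ipo4, Nap1l4 and Atrx) and 11 fell with Dex against untreated cells; with scaling by total counts the balance turned to 8 higher and 4 lower. The shares over all genes were 25.5% higher and 26.0% lower, or 38.6% and 18.3% with scaling by total counts. The balance thus depended on the scaling, and the counts give no firm direction for these genes as a group. Asf1a, a chaperone of H3 and H4, fell 1.33-fold to 2624 and 2760 normalized counts in Dex, against 3549 and 3589 in untreated cells (edgeR adjusted p = 5.9e-05). Ssrp1, a subunit of the FACT complex, fell to 10640 and 10930 in Dex, against 13250 and 12810 in untreated cells (edgeR adjusted p = 0.00063), and Nap1l1, a chaperone of H2A and H2B, to 19310 and 20770 in Dex, against 26910 and 24160 (edgeR adjusted p = 0.000817). Rbbp7, a histone-binding subunit of several chromatin complexes, rose to 16740 and 16780 in Dex, against 14240 and 14020 in untreated cells (edgeR adjusted p = 0.000873). Cabin1, of the H3.3 chaperone complex HIRA, and Srcap, which places H2A.Z, were called lower with Dex, and Atrx, of another H3.3 chaperone complex, was called higher. In Dex plus GW7647 against untreated cells 5 of the 26 rose and 8 fell, beside 24.7% of all genes higher and 25.1% lower. Against Dex edgeR called none of the 26, beside 9.73% over all genes. At an unadjusted p under 0.05 it gave 2 higher and 1 lower, where the share of all genes is not given here. DESeq2 called 1 lower, beside 6.27% of all genes.

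Most of the S phase genes examined fell with Dex. Of 26, 17 fell and none rose with Dex against untreated cells (0 higher and 9 lower with scaling by total counts), beside 26.0% of all genes called lower (18.3% with scaling by total counts), and the other 9 were not called. The median log2 difference of the 26 was -0.19, against 0.01 over all genes tested. At an unadjusted p under 0.05 edgeR gave 0 higher, and DESeq2 called 0 higher. Ccne1, which encodes cyclin E1, fell 1.78-fold to 3755 and 3707 normalized counts in Dex, against 6585 and 6733 in untreated cells (log2 -0.84 ± 0.046 SE; edgeR adjusted p = 3.15e-07). Uhrf1, needed to copy DNA methylation, fell to 7268 and 7063 in Dex, against 10840 and 11110 in untreated cells (edgeR adjusted p = 2.18e-06). The replication licensing factor Cdc6 fell to 3783 and 3892 in Dex, against 5063 and 5090 in untreated cells (edgeR adjusted p = 4.68e-05), and Ccna2, which encodes cyclin A2, to 12920 and 13750 in Dex, against 18350 and 17230 in untreated cells (edgeR adjusted p = 9.79e-05). In Dex plus GW7647 against untreated cells 13 of the 26 fell and none rose, beside 25.1% of all genes lower and 24.7% higher. With scaling by total counts 3 rose and 6 fell, beside 38.8% and 19.2% of all genes. Against Dex none of the 26 was called by edgeR or DESeq2, beside 9.73% of all genes in edgeR. At an unadjusted p under 0.05 edgeR gave 8 higher and 0 lower. The share of all genes at that unadjusted p is not given here, so the count has nothing to be weighed against. Cenpa, the H3 variant of centromeres, fell to 5968 ± 456 in Dex, against 7194 ± 403 in untreated cells (SD, n = 2 each; log2 -0.27 ± 0.062 SE; edgeR adjusted p = 0.0047), and was not called with scaling by total counts. In the comparison of Dex with untreated cells, the called S phase genes fell. The called clustered histone genes went both ways, with 5 higher, 2 of them H3 genes, and 5 lower.

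**Figure D4:**
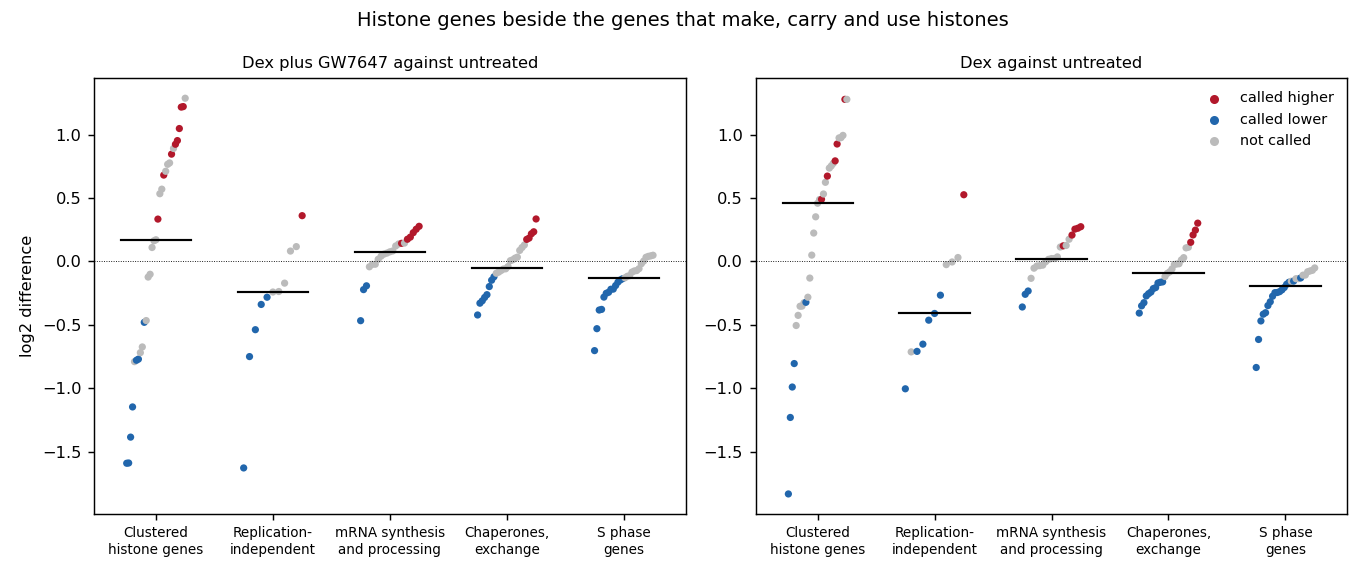
log2 differences of single genes (points, ordered within each group; red called higher, blue called lower, grey not called by edgeR) and their median (line) for tested histone genes and for the genes of histone mRNA processing, chaperones and S phase, in Dex plus GW7647 (left) and Dex (right) against untreated cells. Clustered histone genes spread widest, and the S phase genes lie mostly under 0.

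Sums of markers of other cell types differed between the groups, and not all in the same direction. The 7 megakaryocyte markers summed to 10820 and 10550 normalized counts in Dex plus GW7647, 16950 and 15160 in Dex, and 34690 and 36720 in untreated cells. The 8 granulocyte markers summed to 4382 and 4464 in Dex plus GW7647, 7327 and 7019 in Dex, and 14840 and 15880 in untreated cells. The 7 mast cell and basophil markers summed to 11180 and 10790 in Dex plus GW7647, 16580 and 15960 in Dex, and 11270 and 11580 in untreated cells. Of the 6 tested, 2 were called higher and 4 lower with Dex against untreated cells (median log2 difference -1.36), beside 25.5% and 26.0% of all genes. With Dex plus GW7647, 1 was higher and 4 lower (median -2.23), beside 24.7% and 25.1%. The sum thus does not follow most of its markers. The 7 macrophage markers summed to 299.7 and 305.9 in Dex plus GW7647, 359.6 and 389.1 in Dex, and 408.3 and 420.9 in untreated cells, with C1qa at 0 in each library. The 5 lymphoid markers, with few counts, summed to 19.86 and 16.53 in Dex plus GW7647, 23.15 and 24.38 in Dex, and 41.57 and 42.78 in untreated cells. The 4 hepatoblast markers summed to 120.0 and 127.6 in Dex plus GW7647, 191.4 and 196.0 in Dex, and 22.01 and 17.34 in untreated cells. The 9 erythroid markers summed to 873000 and 880200 in Dex plus GW7647, 870000 and 895200 in Dex, and 1847000 and 1955000 in untreated cells. This sum includes the globin genes Hba-a1 and Hbb-bs, so it does not stand for all 9 markers. With Dex, 2 of the 9 were called higher and 5 lower, beside 25.5% and 26.0% of all genes. Their median log2 difference was -0.19. Hist1h2bc, Hist3h2a and Hist1h2ac were lower in both treated groups, as were the erythroid, megakaryocyte, granulocyte, macrophage and lymphoid sums. The difference of Hist1h2ac was not called with Dex. Hist3h2ba, Hist1h2af, H2afx, H3f3a and H2afy were also lower there, and Hist1h3c, Hist1h3e, Hist1h2ag, Hist1h2bj, Hist2h2be and H2afj were higher. The part of these cell types in the histone differences was not tested.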

How the data were processed

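The labels describe TruSeq polyA libraries of mouse BFU-E. Per the submitters' processing notes, TopHat 1.4.1, HTSeq and DESeq were used with mm9 (NCBIM37); the annotation release and the counting settings are not given in the sources used here. The deposited tables hold raw read counts per Ensembl gene, and normalized columns (a signal scale) that the authors made by dividing counts by size factors, from which only those factors were read. Symbols came from the reference gene name table, which matched 32897 of 37620 genes (87.45%). The counts of the Dex plus GW7647 libraries were identical in both tables.

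All 6 libraries were fitted together with edgeR 4.0.16 in R 4.3.3 (quasi-likelihood test, TMM factors, filterByExpr with a minimum count of 10), and 14125 genes were tested with Benjamini-Hochberg adjustment at 0.05. The steps were checked on simulated counts. Alternatives used DESeq2 1.42.0, DESeq2's size factors in edgeR, scaling by total counts, genes of any count, only the 4 libraries compared, replicate blocks and leaving out each library. SEs are those implied by the F statistic. Transcript models and lengths came from GENCODE M21 (GRCm38), not the build of the counts, so no gene coordinates are given; promoters came from RefSeq (GRCm38.p6), with 45 of the 51 genes matched. Named genes were all replication-independent genes; among clustered genes the 5 with most counts, Hist1h1c, Hist1h2bc and Hist2h2be, and up to 6 called rises and 6 called falls whose mean normalized count reached 50; and up to 4 genes per list with the smallest p. Histone genes and lists were chosen with earlier results of these data known. Counting error alone limits genes near 30 counts.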

Additional observations from a re-analysis of the deposited data

How the results depend on the processing

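Over all genes, calls for Dex plus GW7647 against Dex numbered 1374, 2085 with genes of any count, and 521 to 1720 with 1 library left out. In that comparison the clustered genes called lower numbered 0 in DESeq2 and 0 to 1 with a library left out; replication-independent genes called higher and lower numbered 1 and 1 with genes of any count, and 0 to 1 each with a library left out. For Dex against untreated, clustered genes called higher numbered 3 in DESeq2, 10 with genes of any count and 3 to 5 with a library left out, and replication-independent genes called higher 2 with total counts. For Dex plus GW7647 against untreated, clustered genes called higher numbered 5 in DESeq2 and 4 to 8 with a library left out; replication-independent genes called higher numbered 2 with total counts and lower 3 in DESeq2. Over all genes, DESeq2 called 43.5% for Dex against untreated, 7.84% for Dex plus GW7647 against Dex and 42% for Dex plus GW7647 against untreated. With genes of any count the shares were 36%, 9.59% and 35.2%, and with total counts 56.9%, 9.76% and 58%, in the same order. With a library left out the calls over all genes also changed. Outside globin and mitochondrial genes, the clustered share was 0.0211% in Dex plus GW7647, 0.0234% in Dex and 0.0234% in untreated cells, and the replication-independent share 0.173% in Dex plus GW7647, 0.169% in Dex and 0.170% in untreated cells. Among the histone genes named, signs turned only in differences that were not called. For Dex against untreated these were H2afv (0.13 with total counts, 0.02 with genes of any count, 0.04 without untreated replicate 2, 0.05 without Dex replicate 2, lowest -0.09 with a library left out), H2afz (0.10 with total counts, 0.12 without untreated replicate 1, 0.11 without Dex replicate 1, lowest -0.18), H3f3b (-0.01 without Dex replicate 2, highest 0.05) and Hist1h1c (-0.02 without untreated replicate 1, highest 0.12). For Dex plus GW7647 against Dex these were H3f3aos (0.12, lowest -0.26) and Hist1h3a (-0.14, highest 0.62) without Dex plus GW7647 replicate 2 and Hist1h2af (-0.05, highest 1.08) without Dex replicate 1; against untreated, H2afz (-0.01 without untreated replicate 2, highest 0.26) and Hist1h1c (0.02 with total counts). The cause of these changes was not tested. Whether the replicate numbers pair the libraries cannot be settled with 2 libraries per group. Deviations of same-numbered libraries correlated at -0.21 (Dex and untreated), -0.05 (Dex plus GW7647 and untreated) and 0.15 (Dex plus GW7647 and Dex) over 14125 genes. With a replicate block, 6824 genes were called for Dex against untreated, against 7283 without it, 998 for Dex plus GW7647 against Dex and 6523 for Dex plus GW7647 against untreated; H3f3c was then called lower in the last and Hist1h2bk not. With crossed numbers, chosen after seeing the data, 8044 genes were called for Dex against untreated, 3996 higher and 4048 lower.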
